A study of Mus musculus with 8 samples.

Results

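The proteasome genes of mouse brain were compared between 4 libraries labelled as AKAP11 conditional knockout (cKO) and 4 labelled as control. The genes were taken as the protein-coding genes whose symbol begins with Psma, Psmb, Psmc, Psmd, Psme, Psmf or Psmg and a number. This rule gave 50 of the 57186 genes listed in each count file. It also matched 4 pseudogenes, which were not used. Of the 50 genes, 47 passed the filter on low counts and were tested. Psma8, Psmb11 and Psme2b did not, with 30, 29 and 40 reads over the 8 libraries. One member, Psmc3ip, matches by name only: its product acts in meiotic recombination and is no proteasome subunit.

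Akap11 encodes an A-kinase anchoring protein that tethers protein kinase A, and the series title links it to bipolar disorder and schizophrenia and to autophagy. The labels give the tissue as brain and no region, strain, age, sex, recombinase line or agent, so the cKO and control groups are known here only by the words knockout and control. Each library is 1 count file, and nothing in the labels says that the libraries are separate mice. The p-values therefore measure the spread between these libraries, which may be technical.

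The proteasome is the large protease that degrades proteins tagged with ubiquitin. Its 20S core is a barrel of stacked rings, with alpha subunits in the outer rings and beta subunits, some of them proteolytic, in the inner rings. The 19S cap binds ubiquitin chains, removes them and unfolds the substrate with a ring of ATPases. Interferon can exchange the proteolytic beta subunits for those of the immunoproteasome, which in brain are known mainly from microglia. Neurons depend on the proteasome for the turnover of synaptic proteins.

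Reads in genes numbered from 13841218 to 19991942 per cKO library and from 15752877 to 19818313 per control library. The replicate 1 library of the cKO group stood apart on the first principal component and had the smallest share of reads assigned to genes, 63.8%, where the rest had 73.7% to 79.7%. Control replicate 1 stood apart on the second component. The cKO replicate 1 library was the highest or the lowest of the 8 libraries for 25 of the 47 proteasome genes (53.2%), and for 46.8% of all genes tested. Akap11 (ENSMUSG00000022016, chromosome 14) checks the labels. It was at 220.5, 214, 237 and 240.5 CPM in cKO replicates 1 to 4 and at 373, 312, 315 and 291 CPM in control replicates 1 to 4, and the log2 fold change was -0.50 (SE 0.069; adjusted p 0.0103 by edgeR). Here CPM is the count of a gene scaled to library size, after TMM scaling between libraries. The call was lost without cKO replicate 2 (-0.47, edgeR adjusted p 0.104) and without control replicate 2 (-0.52, edgeR adjusted p 0.0616). Brain markers were abundant in both groups, with 5 neuronal genes summing to between 5659 and 6049 CPM in cKO libraries and between 5693 and 6329 CPM in control libraries. The mean sums were 5829.9 CPM in cKO and 6029 CPM in control libraries. Of these neuronal genes, 4 had negative log2 fold changes, with a median of -0.05, and the groups overlapped for each. The 5 astrocyte genes summed to between 1148 and 1224 CPM in cKO libraries and between 1030.0 and 1194 CPM in control libraries, and 1 of them, the water channel Aqp4, was among the genes called (log2 fold change 0.46, SE 0.067, adjusted p 0.0104 by edgeR). This call was lost without cKO replicate 2, 3 or 4 or control replicate 2 or 4, with edgeR adjusted p between 0.0621 and 0.159. Gfap, another of the 5, stood at 0.33 (SE 0.11, edgeR p 0.0126 before and 0.889 after adjustment), with all cKO libraries above all control libraries. The unadjusted edgeR p of Gfap rose to 0.0898 when cKO replicate 1 was dropped, and stayed under 0.05 when any other single library was. Correcting for the GC content of genes moved it to 0.0879. Groups overlapped for the remaining astrocyte genes, Gja1 at 0.06, Aldh1l1 at 0.05 and Slc1a3 at -0.08. The part of these differences in the proteasome values was not tested.

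No proteasome gene was called between cKO and control brain by the edgeR quasi-likelihood test with Benjamini-Hochberg adjustment over 16766 genes, at a threshold of 0.05. DESeq2 and limma voom also called 0 of the 47. The same test called 0.0239% of all genes. Before adjustment, 1 of the 47 members (2.13%) had an edgeR p under 0.05, against 4.78% of all genes tested. The 4.78% divides into 1.91% lower in cKO, where the 1 member falls, and 2.87% higher in cKO, where no member falls. That member was Psmg2, an assembly chaperone, with a log2 fold change of -0.22. Its p did not stay under 0.05 without cKO replicate 1 (0.0922), control replicate 1 (0.0746), control replicate 3 (0.0984) or both replicate 1 libraries (0.164), all by edgeR. Without cKO replicate 1 the member under 0.05 was Psme2, and without control replicate 1 it was Psmb7. Of the 47 log2 fold changes, 28 were negative and 19 positive, with a median of -0.02. Over all genes tested 48.8% were negative and the median was 0.0034. In bulk tissue, fewer cells of a type and less RNA per cell cannot be told apart.

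The precision was high for the abundant subunits. For all 14 constitutive 20S core genes, the 95% interval of the fold change lay within 1.25-fold in either direction. It did so for all 17 19S cap genes that match the symbol rule. This held for 39 of the 47 proteasome genes (83.0%) and for 53.5% of all genes tested. Among genes with a mean of at least 10 CPM in the 8 libraries, it held for 39 of 41 proteasome genes (95.1%) and for 83.6% of all such genes. Within groups, the median coefficient of variation of these 41 genes was 6.53% in cKO and 3.59% in control libraries. For all genes at that level it was 7.71% in cKO and 5.76% in control libraries.

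**Figure D1:**
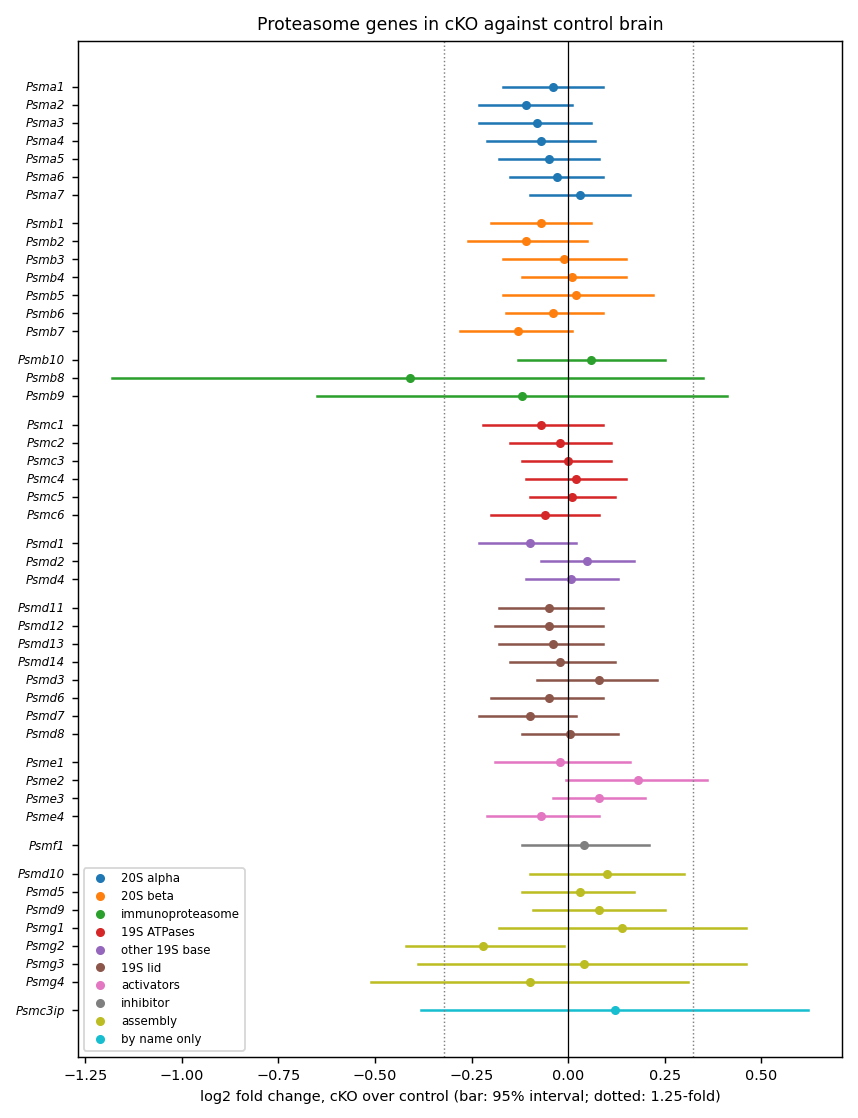
Log2 fold changes (cKO over control, x axis) of the 47 tested proteasome genes, grouped by class (colours); bars are 95% intervals from edgeR and dotted lines mark 1.25-fold. Most intervals of the 20S and 19S genes are narrow and include 0, and the wide ones belong to genes with few reads, such as Psmb8, Psmb9 and Psmg3.

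In the outer ring of the core, 6 of the 7 alpha subunit genes had negative log2 fold changes, with a median of -0.05, and none passed the test. The member with the lowest p was Psma2 (ENSMUSG00000015671, chromosome 13). It was at 68.2, 66.8, 70.1 and 72.7 CPM in cKO libraries and at 77.4, 75.3, 73.6 and 73.7 CPM in control libraries. Every cKO library thus lay below every control library, by a narrow margin. The log2 fold change was -0.11 (SE 0.059, 95% interval -0.23 to 0.01), with an edgeR p of 0.0752 and an adjusted p of 0.889. Groups that do not overlap were seen for 2.96% of all genes tested, 1.39% with cKO lower and 1.57% with cKO higher. Among the 47 members they were seen for 2 with cKO lower, Psma2 and Psmg2, and for 0 with cKO higher. Psma3 was second by p, with 69.8, 80.8, 84.3 and 86.2 CPM in cKO libraries and 85.9, 90.1, 81.8 and 82.6 CPM in control libraries. The groups overlapped and the low value was cKO replicate 1. The remaining 5 alpha genes, Psma1, Psma4, Psma5, Psma6 and Psma7, had log2 fold changes between -0.07 and 0.03.

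In the inner rings, the constitutive beta genes gave 5 negative and 2 positive log2 fold changes, with a median of -0.04 and none past the test. With GC-content offsets the median was -0.07, and the summed level of the 7 genes, which otherwise overlapped between groups, lay between 427 and 443 CPM in cKO libraries and between 449 and 461 CPM in control libraries. The sum of the 7 alpha genes overlapped with and without these offsets. With them it lay between 451 and 470.5 CPM in cKO and between 467 and 482 CPM in control libraries. Psmb7, the trypsin-like proteolytic subunit (ENSMUSG00000026750, chromosome 2), was at 45.3, 52.7, 52.1 and 52.1 CPM in cKO libraries and at 52.5, 54.8, 60.1 and 54.6 CPM in control libraries. The groups touched only through the highest cKO and the lowest control library. Its log2 fold change was -0.13 (SE 0.069, 95% interval -0.28 to 0.01, edgeR p 0.0694, adjusted p 0.889). Its exons share 405 bases with those of Nek6 on the opposite strand, so some reads of the 2 genes may have been counted together or dropped. Psmb2, a structural subunit, was at 38.3, 34.8, 39.5 and 39.3 CPM in cKO libraries and at 41.5, 36.9, 42.1 and 43.1 CPM in control libraries, with a log2 fold change of -0.11 (SE 0.074).

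The other proteolytic subunits overlapped between groups. Psmb5, the chymotrypsin-like subunit and main target of proteasome inhibitor drugs, was at 30.8, 38.8, 30.7 and 27.3 CPM in cKO libraries and at 31.9, 32.7, 28.9 and 32.1 CPM in control libraries. The cKO libraries enclosed the range of the controls, and the log2 fold change was 0.02 (SE 0.094). Psmb6, the caspase-like subunit, was at 67.4, 68.8, 63.2 and 65.1 CPM in cKO libraries and at 68.6, 70.3, 65.6 and 66.7 CPM in control libraries, with a log2 fold change of -0.04 (SE 0.060). Psmb1, Psmb3 and Psmb4, which carry no proteolytic site, had -0.07, -0.01 and 0.01.

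Summed over the 14 constitutive core genes, the level was 888, 904, 891 and 904 CPM in cKO replicates 1 to 4 and 918, 929.9, 936 and 924 CPM in control replicates 1 to 4. The cKO mean of 897 ± 8.39 CPM lay 3.27% below the control mean of 927 ± 7.88 CPM (SD, n = 4 each), and the groups did not overlap. Taken apart, the alpha sum and the beta sum each overlapped between groups under the same scaling. The sum of the 14 genes was formed after the values of its genes were seen, so no test is given for it. With library totals in place of TMM the groups overlapped (887 to 909 CPM in cKO, 897 to 938 CPM in control) and the difference was -2.63%. With DESeq2 size factors and with GC-content offsets they stayed apart, at -3.49% and -2.96%. With any 1 library left out, the difference ranged from -3.59% to -2.94%.

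The 17 19S cap genes that match the symbol rule summed to 1725, 1730.1, 1708 and 1719 CPM in cKO libraries and to 1737, 1777, 1736 and 1709.6 CPM in control libraries, and here the groups overlapped. The cap subunit genes Adrm1 and Sem1 do not match the rule and are left out of this sum and of the ratio below. The core sum was 52.1% ± 0.455 of the cap sum in cKO libraries and 53.3% ± 0.843 in control libraries (SD, n = 4 each). A factor common to a whole library cancels in this ratio, whereas GC-content offsets moved its relative difference to -1.32%, against -2.21% without them. Its values were 51.5%, 52.3%, 52.2% and 52.6% in cKO replicates 1 to 4 and 52.9%, 52.3%, 53.9% and 54.1% in control replicates 1 to 4, with overlap.

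**Figure D2:**
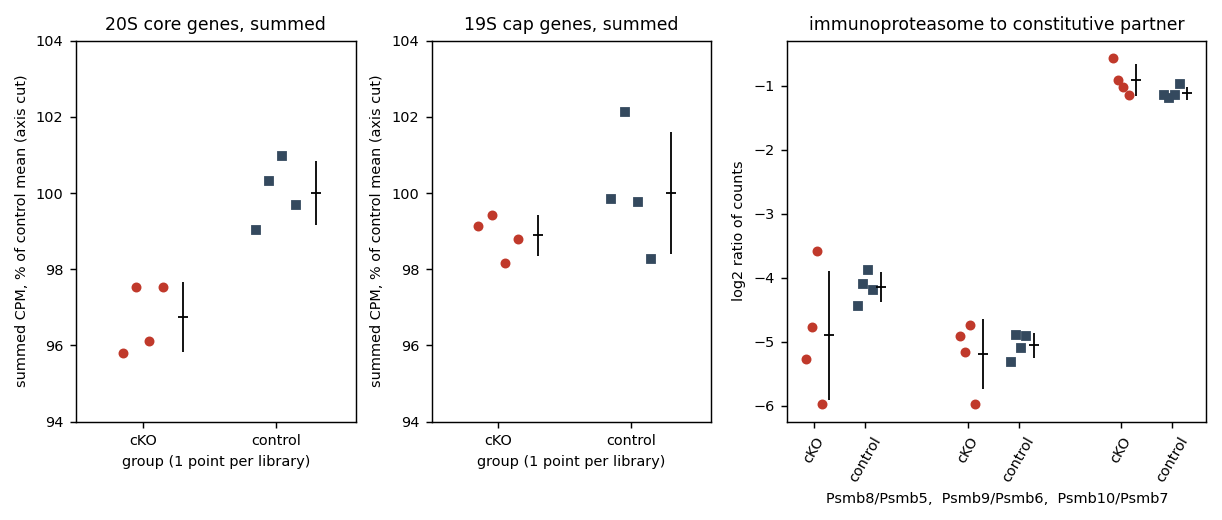
Left and middle: summed CPM of the 14 constitutive 20S core genes and of the 17 19S cap genes that match the symbol rule in each library, as a percentage of the control mean (y axis cut and not starting at 0). Right: log2 ratio of read counts of each immunoproteasome gene to its constitutive partner. Points are libraries and bars are mean ± SD of 4; the core sums of cKO libraries lie below those of control libraries, while the cap sums and all 3 ratios overlap.

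Among the cap's 6 ATPase genes, Psmc1 to Psmc6, which encode the unfoldase ring, 4 log2 fold changes were negative and 2 positive, with a median of -0.0098. The member with the lowest p, Psmc1, was at 116, 153, 147 and 145 CPM in cKO libraries and at 149, 153, 141 and 145 CPM in control libraries. Its low value came from cKO replicate 1 alone, and its log2 fold change of -0.07 (SE 0.072) turned to 0.02 when the replicate 1 libraries of both groups were left out. Psmc6 was at 66.3, 74.1, 80.8 and 83.4 CPM in cKO libraries and at 79.6, 80.1, 81.1 and 77.3 CPM in control libraries, again with cKO replicate 1 lowest. Psmc2, Psmc3, Psmc4 and Psmc5 lay between -0.02 and 0.02.

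The other base genes that match the symbol rule were Psmd1 and Psmd2, whose large products scaffold the cap, and Psmd4, a ubiquitin receptor. Psmd1 was at 101, 102, 113 and 111 CPM in cKO libraries and at 118, 117, 118 and 107 CPM in control libraries (log2 fold change -0.10, SE 0.061, edgeR p 0.103). Only control replicate 4 of the control libraries lay within the cKO range. Psmd2, with the highest CPM of the 47, was at 255, 223, 219.7 and 225 CPM in cKO libraries and at 229.8, 221, 218 and 225 CPM in control libraries, with a log2 fold change of 0.05 (SE 0.058). Psmd4 stood at 0.0075 (SE 0.057).

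Of the 8 lid genes that match the symbol rule, 6 had negative log2 fold changes and the median was -0.04. Psmd7, a structural partner of the deubiquitinase, had the lowest p of them (0.101 by edgeR). It was at 87.8, 96.4, 96.4 and 88.7 CPM in cKO libraries and at 102, 95.3, 103 and 96.3 CPM in control libraries (log2 fold change -0.10, SE 0.060). Psmd3 was at 141, 111, 107 and 112 CPM in cKO libraries and at 109, 116, 108 and 114 CPM in control libraries. The high value was cKO replicate 1, and the log2 fold change of 0.08 (SE 0.075) was -0.03 without the replicate 1 libraries of both groups. Psmd14, the deubiquitinase of the lid, stood at -0.02 (SE 0.065). Psmd6, Psmd8, Psmd11, Psmd12 and Psmd13 lay between -0.05 and 0.0045.

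**Figure D3:**
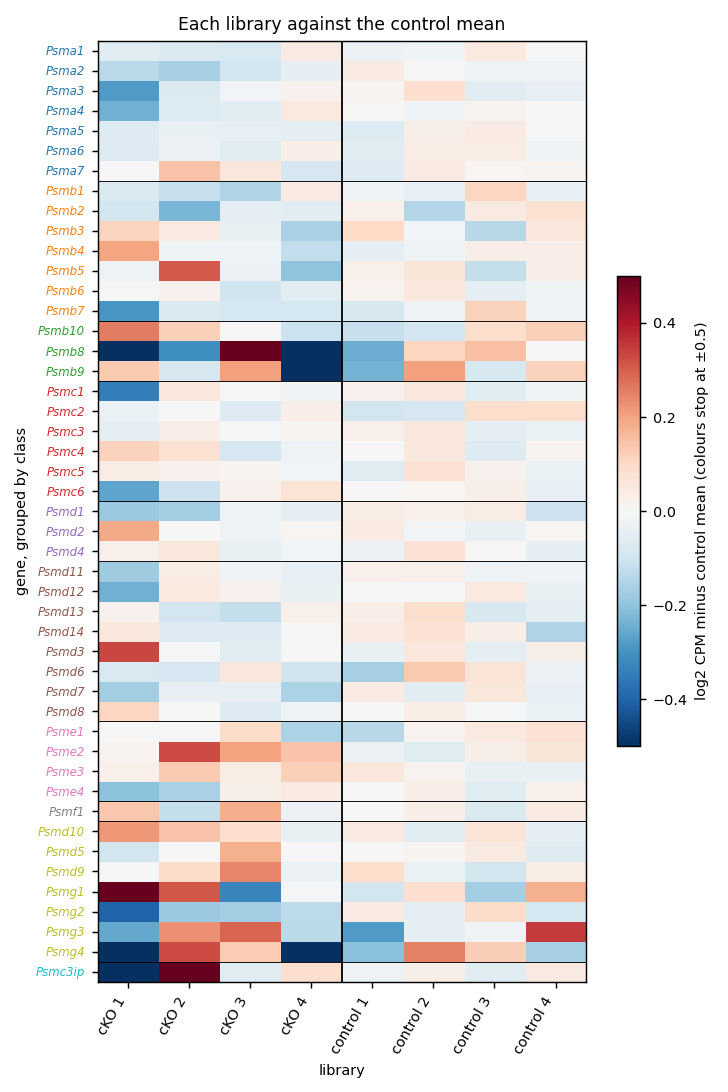
Log2 CPM of each tested proteasome gene in each library minus the mean of the control libraries (colour, cut at 0.5 in either direction); rows are genes by class, columns the 4 cKO and then the 4 control libraries. The first cKO column holds many of the strongest colours, in both directions, and Psmb8, Psmg1 and Psmg4 vary among cKO libraries in both directions.

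The immunoproteasome genes were low in both groups except Psmb10. Psmb8 (ENSMUSG00000024338, chromosome 17), the inducible counterpart of Psmb5, had 11, 28, 51 and 8 reads in cKO replicates 1 to 4 and 24, 30, 37 and 35 reads in control replicates 1 to 4. In CPM these were 0.796, 1.41, 2.56 and 0.435 in cKO libraries and 1.47, 1.91, 1.97 and 1.76 in control libraries. The cKO libraries held both the highest and the 3 lowest values of the 8. The log2 fold change was -0.41 with an SE of 0.37 and a 95% interval from -1.18 to 0.35, so a change of either sign was not resolved at this depth (edgeR adjusted p 0.899). It was -0.67 with limma voom. Single libraries decided its size: it was -0.99 without cKO replicate 3 (edgeR p 0.0103 before and 0.827 after adjustment), -0.26 without cKO replicate 1 and -0.12 without cKO replicate 4. Psmb9, the counterpart of Psmb6, was at 2.24, 1.92, 2.36 and 1.03 CPM in cKO libraries and at 1.71, 2.36, 1.92 and 2.21 CPM in control libraries (log2 fold change -0.12, SE 0.25). Its exons share 212 bases with Tap1 on the opposite strand. Psmb10, the counterpart of Psmb7, was at 30.5, 27.8, 25.5 and 23.7 CPM in cKO libraries and at 23.6, 23.9, 27.2 and 27.8 CPM in control libraries, with a log2 fold change of 0.06 (SE 0.091).

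Set against the constitutive partner within the same library, and per length of exon, Psmb8 stood at 2.18% ± 1.61 of Psmb5 in cKO and 3.06% ± 0.492 in control libraries (SD, n = 4 each). Psmb9 stood at 1.36% ± 0.443 of Psmb6 in cKO and 1.43% ± 0.189 in control libraries. Psmb10 reached 47.5% ± 8.53 of Psmb7 in cKO and 40.9% ± 2.89 in control libraries. The log2 ratios of counts differed by -0.75, -0.14 and 0.20 between cKO and control. With all 70 ways of assigning the libraries enumerated, the exact permutation p (two-sided) was 0.200, 0.771 and 0.143, or 0.300, 0.771 and 0.300 adjusted over the 3 pairs. The smallest p this design can give is 0.0286. Without cKO replicate 3, which held the highest Psmb8 to Psmb5 ratio of all libraries, the difference for that pair was -1.19. Its exact permutation p of 0.0286, not adjusted, is the smallest that the libraries left can give. With any other single library left out the difference ranged from -0.85 to -0.39.

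Microglial markers, 5 genes including Cx3cr1 and C1qa, summed to between 217 and 237 CPM in cKO libraries and between 212 and 243 CPM in control libraries. Of these 5 genes, P2ry12 had an edgeR p of 0.00424 before adjustment, at 27.4, 25.8, 29.3 and 28.7 CPM in cKO libraries and 36.1, 35.1, 31.3 and 30.8 CPM in control libraries (log2 fold change -0.26, adjusted p 0.889). The other 4 had positive values, Tmem119 at 0.17, C1qa at 0.10, Cx3cr1 at 0.08 and Csf1r at 0.0051, and none of them had a p under 0.05. Endothelial markers summed to between 172 and 193 CPM in cKO libraries and between 185 and 204 CPM in control libraries. Of these 5 genes, 4 had negative log2 fold changes, with a median of -0.10. Flt1 alone had a p under 0.05 (log2 fold change -0.17, SE 0.071, edgeR p 0.0294 before and 0.889 after adjustment), and its groups overlapped. Of the 5 T cell markers, Cd3e, Cd3g and Cd8a held 21, 10 and 15 reads over the 8 libraries and were not tested. Trac and Cd4 held 92 and 1361 reads, with log2 fold changes of 0.18 (SE 0.36) and 0.04 (SE 0.11). Interferon-induced genes, 10 in all, summed to 80.2, 82.7, 75.8 and 71.9 CPM in cKO replicates 1 to 4 and to between 73.7 and 80.6 CPM in control libraries. The library lowest in this sum, cKO replicate 4, was also the lowest of the 8 for Psmb8 and Psmb9. For Psmb8 the highest library was cKO replicate 3 (2.56 CPM), whose interferon sum was 75.8 CPM. In cKO replicate 1, Psmb8 was at 0.796 CPM and the interferon sum at 80.2 CPM. The part of these cell types and interferon-induced genes in the immunoproteasome values was not tested.

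The activator genes split in direction. Psme1 and Psme2 encode the interferon-inducible ring that opens the core. Psme1 was at 26.6, 26.7, 28.4 and 23.9 CPM in cKO libraries and at 24.2, 27.0, 27.6 and 28.0 CPM in control libraries (log2 fold change -0.02, SE 0.082). Its partner Psme2 (ENSMUSG00000079197, chromosome 14) was at 18.0, 22.4, 20.5 and 19.7 CPM in cKO libraries and at 17.5, 17.1, 18.2 and 18.6 CPM in control libraries. All cKO libraries except replicate 1 lay above every control library. Its log2 fold change, the highest of the 47, was 0.18 (SE 0.089) and its 95% interval ran from -0.0061 to 0.36. It did not pass, with an edgeR p of 0.0573 and an adjusted p of 0.889. Psme2b, a near copy of Psme2, held 40 reads in all. Reads that align to both genes may have been left out as aligned at several places, which was not tested.

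Psme3, the nuclear activator, was at 109.7, 118, 110.4 and 117 CPM in cKO libraries and at 112, 109, 105 and 105 CPM in control libraries (log2 fold change 0.08, SE 0.057). Psme4, the largest activator, was at 46.8, 48.3, 55.1 and 55.6 CPM in cKO libraries and at 54.0, 55.2, 51.8 and 55.0 CPM in control libraries (log2 fold change -0.07, SE 0.070). Psmf1, an inhibitor of the core in vitro, was at 37.6, 31.5, 38.8 and 33.5 CPM in cKO libraries and at 34.2, 35.0, 32.5 and 35.2 CPM in control libraries (log2 fold change 0.04, SE 0.079). The groups overlapped for all 3.

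Assembly genes, which encode chaperones absent from the finished particle, had 5 positive and 2 negative log2 fold changes and a median of 0.04. Psmg2 (ENSMUSG00000024537, chromosome 18) pairs with Psmg1 in building the alpha ring. It was at 11.0, 12.8, 12.9 and 13.3 CPM in cKO libraries and at 15, 14.1, 15.5 and 13.7 CPM in control libraries. The groups did not overlap, and the log2 fold change was -0.22 (SE 0.098, 95% interval -0.42 to -0.01). Its edgeR p was 0.0380 before and 0.889 after adjustment over all genes. Its partner Psmg1 pointed the other way, at 11.9, 10.3, 6.58 and 8.26 CPM in cKO libraries and 7.78, 8.79, 7.35 and 9.39 CPM in control libraries (log2 fold change 0.14, SE 0.15). Without the replicate 1 libraries of both groups, Psmg1 stood at -0.02.

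Psmd10, a chaperone of the ATPase ring, was at 15.8, 15, 14.4 and 13.2 CPM in cKO libraries and at 14, 13, 14.2 and 13.1 CPM in control libraries (log2 fold change 0.10, SE 0.095). Psmd5 and Psmd9, further chaperones of that ring, stood at 0.03 and 0.08. Psmg3 and Psmg4, which act together on the alpha ring, had under 5 CPM in either group on average and stood at 0.04 (SE 0.20) and -0.10 (SE 0.20). Psmc3ip stood at 0.12 (SE 0.24). Among the untested genes, the testis subunit gene Psma8 averaged 0.207 ± 0.0790 CPM in cKO and 0.215 ± 0.139 CPM in control libraries. The thymus subunit gene Psmb11 averaged 0.247 ± 0.136 CPM in cKO and 0.174 ± 0.114 CPM in control libraries (SD, n = 4 each). Akap11 shares chromosome 14 with 5 tested members, Psmb5, Psmc6, Psmd6, Psme1 and Psme2, whose log2 fold changes were 0.02, -0.06, -0.05, -0.02 and 0.18.

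Levels per length, as CPM per kilobase of exon, put the core and cap genes in a common range. All 7 assembly genes, Psmf1, Psme4, Psmb8 and Psmb9 lay below it in both groups. The 14 constitutive core genes ranged from 18.9 (Psma2) to 89.2 (Psmb4) in cKO libraries and from 20.4 to 88.2 for the same genes in control libraries, with medians of 43.9 in cKO and 47.7 in control. The 17 cap genes that match the symbol rule ranged from 20.6 (Psmd11) to 126 (Psmc5) in cKO and from 21.3 to 125 in control libraries, with medians of 49.2 in cKO and 49.5 in control. Activators had medians of 20.9 in cKO and 19.8 in control, and assembly genes 9.60 in cKO and 9.23 in control. Psmb8 was lowest of the tested members, at 0.780 ± 0.559 CPM per kilobase in cKO and 1.06 ± 0.134 in control libraries (SD, n = 4 each). The core subunits occur in equal numbers in the particle, while their transcripts spanned 4.72-fold in cKO and 4.32-fold in control libraries, or 3.74-fold in cKO and 3.42-fold in control with the length of the longest transcript, a variant added after the data were seen.

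**Figure D4:**
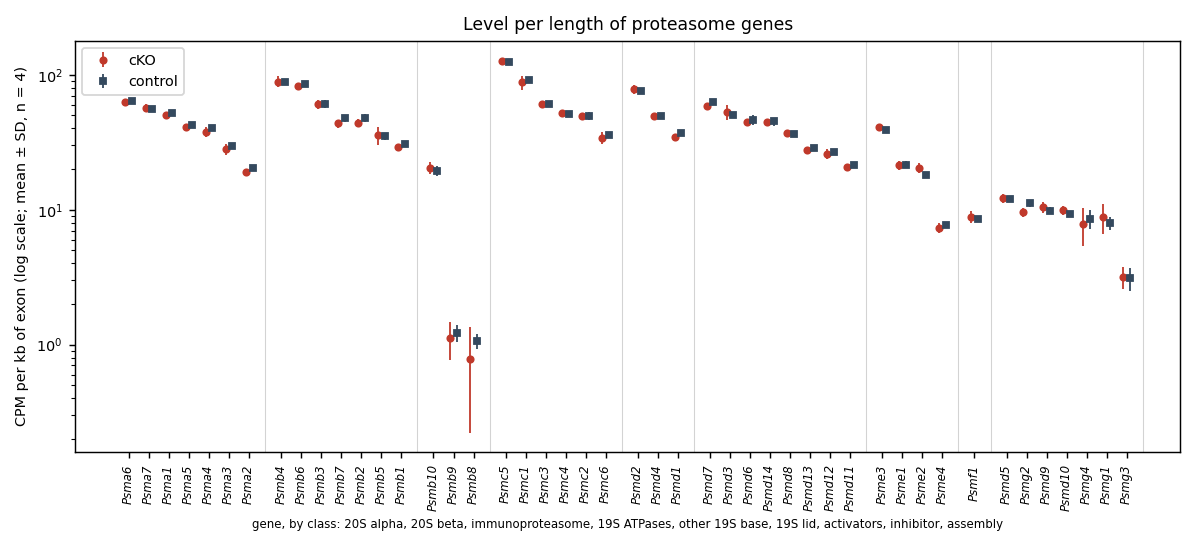
CPM per kilobase of exon (log axis) of each tested proteasome gene, by class; points are means and bars the SD of 4 libraries, with cKO left of control for each gene. Core and cap genes lie between 18.9 and 126, the assembly genes between 3.10 and 12.2, and Psmb8 and Psmb9 lowest among the named classes.

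Promoter sequence is a feature that the symbol rule did not use. Windows from 250 bases before to 50 bases after a gene start were found in RefSeq (GRCm38.p6) for 42 of the 50 genes. A gene may have more than 1 window, as Psma6 and Psmc2 do, and it counted if any of them held the motif. The motif CCGGAAG, a core site of ETS family factors, was present on either strand in 9 of 14 cap genes (64.3%) and in 1 of 11 core genes (9.09%). That core gene was Psma6, which held it in another window than the one with its CCAAT matches. It was present in 17.7% of 12071 genes tested here that have a window. CCAAT, the box bound by NF-Y, was in 6 of 11 core genes (54.5%), 4 of 14 cap genes (28.6%) and 15 of the 42 members (35.7%), against 42.3% of the 12071. Within the core it was in 5 of 7 alpha genes (71.4%) and 1 of 4 beta genes (25%). TGACNNNGC, the antioxidant response element through which NFE2L1 induces proteasome genes, was in 6 of the 42 (14.3%) and in 16.6% of the 12071. No pattern contains another whole, though adjacent matches may share bases. A match is a description of letters, not a bound site. Stretches upstream of the gene start are given for 4 cap genes with the ETS letters, 1 alpha gene with CCAAT and Psmb5 with the response element, each 5′ to 3′ along the gene's strand with the match in capitals (CTTCCGG is CCGGAAG on the opposite strand):
Psmc1, chr12:100110164-100110190, plus strand: ggtggatgcaCTTCCGGcggtggcgat
Psmd2, chr16:20651616-20651642, plus strand: ccgcagggcgCTTCCGGtctggaggac
Psmd12, chr11:107479501-107479527, plus strand: gagcgggcgaCTTCCGGtgcgagtgac
Psmd6, chr14:14120974-14121000, minus strand: agagacgcgaCCGGAAGtcagactggc
Psma2, chr13:14613178-14613202, plus strand: tgactctcctCCAATcagagcaaag
Psmb5, chr14:54618024-54618052, minus strand: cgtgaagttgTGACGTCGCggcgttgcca

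Subunits, partners and regulators outside the symbol rule gave no calls. Of 10 tested proteasome-associated genes, 6 had negative log2 fold changes and the median was -0.07. Among them, the cap subunit genes Adrm1 and Sem1 stood at 0.08 (SE 0.074) and -0.10 (SE 0.11). Pomp, which matures the core, was at 72.1 ± 4.44 CPM in cKO and 76.0 ± 2.91 CPM in control libraries, the ligase Ube3c at 102 ± 4.61 CPM in cKO and 107 ± 1.48 CPM in control libraries, and Txnl1 at 74.4 ± 5.11 CPM in cKO and 78.1 ± 3.82 CPM in control libraries (SD, n = 4 each). Of 11 tested genes around NFE2L1, the transcription factor that raises proteasome genes when the proteasome is impaired, 8 were positive with a median of 0.04. Mafg, a small Maf partner, had the lowest p of them (0.0288 by edgeR before adjustment, 0.889 after), at 102 ± 6.24 CPM in cKO and 92.1 ± 5.07 CPM in control libraries. Nfe2l3 stood at 0.28 (SE 0.15) and Syvn1 at 0.13 (SE 0.085). Ddi1 had 0 reads. The 8 targets of NFE2L2 had a median of -0.02, with Gsr at -0.12, Srxn1 at 0.07 and Slc7a11 at -0.10.

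Ubiquitin genes and activating enzymes gave 5 negative values of 6, with a median of -0.03, and the activating enzyme Uba6 stood at -0.12 (SE 0.077). Ubiquitin shuttle genes, which deliver substrates, had 4 negative values of 10 and a median of 0.02, with Bag6 at 0.12, Zfand5 at -0.07 and Ubqln1 at -0.06. The 11 genes of MHC class I presentation, which uses immunoproteasome products, had a median of -0.0047, with B2m at -0.12, Tap1 at 0.25 and Tapbp at 0.11. The 10 interferon-induced genes had a median of -0.04, with Irf1 at 0.21 and Gbp2 at 0.21. Over these 7 lists, Mafg alone reached an edgeR p under 0.05 before adjustment. Such a p was reached by 4.78% of all genes tested.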

How the data were processed

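Total RNA from brain was sequenced in 8 libraries, whose group and replicate number come from their titles. The authors deposited raw counts, 1 whole number for each Ensembl gene and library. Per the submitters' processing notes, HISAT2 and GRCm39 were used; the sources used here name no counting program, annotation, strand setting or version, so reads of genes that overlap on opposite strands cannot be told apart. The 5 entries that name no gene stayed out of library sizes and tests; they held, as shares of listed reads, 4.35% to 6.04% outside features, 5.14% to 10.1% ambiguous, 2.15% to 7.18% of low quality, 3.31% to 10.4% unaligned and 4.1% to 4.39% aligned at several places. Symbols were matched for 51880 of 57186 genes by a list of gene names and, where it held none, by GENCODE M21 (GRCm38). GENCODE M21 also gave biotype, chromosome, exon length, GC content and overlaps.

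Counts were filtered with filterByExpr (16766 of 32202 genes with a read kept), scaled by TMM and tested in R 4.3.3 with edgeR 4.0.16 by its quasi-likelihood method (robust, group as only term). Log2 fold changes are cKO over control. Steps were tested on simulated data. There, edgeR called 14 of 72 genes set at an absolute log2 fold change of 0.25, so changes of that size are mostly missed. It called 61 of 74 at 0.5 and 54 of 54 at 1, with 4 false calls. All genes set to change lay above a minimum level, and their spread followed the trend over all genes, not each gene's own. Far more genes were changed than were called in the real libraries, which eases the adjusted threshold. Recovery in the real libraries may therefore be lower than these counts. DESeq2 1.42.0 and limma 3.58.1 were alternatives, as were its size factors, library totals, other filters, a replicate block, GC-content offsets (loess, span 0.5) and leaving out libraries. The members, classes, lists and motifs were chosen with earlier results of these data known. The naming rule gave library values for the proteolytic, inducible, activator and inhibitor genes and for the 2 members with the lowest p in other classes (Psmg1 was added as the partner of Psmg2, after its values were seen), and the 3 members of each related list with the lowest p, some of which are not reported here. P2ry12 and Flt1 were named by their p among the microglial and the endothelial markers, and Adrm1 and Sem1 were named as cap subunits.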

Additional observations from a re-analysis of the deposited data

Results flagged for a closer look

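In 7 of 102 groups of 4 libraries examined, 1 library lay far from the other 3; chance flags about 1 in 20. In cKO replicate 1, Psmb7 was at 45.3 CPM against 52.1 to 52.7 CPM in the other cKO libraries, Psmd2 at 255 CPM against 219.7 to 225 CPM, and Psmd3 at 141 CPM against 107 to 112 CPM. In cKO replicate 4, Psma1 was at 66.0 CPM against 60.9 to 61.6 CPM, and in cKO replicate 3, Psmd6 was at 66.9 CPM against at most 61.1 CPM. Among control libraries, Psmb1 was at 113 CPM in replicate 3 against 102 to 103 CPM, and Psmd1 at 107 CPM in replicate 4 against 117 to 118 CPM.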

How the results depend on the processing

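No proteasome gene passed the threshold under any alternative run, with or without the replicate block, and the number with negative log2 fold changes stayed between 24 and 33 of 47. The number with an unadjusted p under 0.05 was 2 with library totals, 2 with GC-content offsets, 0 with the replicate block, 2 with the replicate block and GC-content offsets, and 0 to 2 with libraries left out (any 1, or the replicate 1 libraries of both groups). All genes past the threshold numbered 4, against 2 with limma voom, 7 with no low-count filter, 2 with the replicate block and 2 without both replicate 1 libraries; with any 1 library left out it was 0 to 3, and 0 without cKO replicate 2 or control replicate 2. Which members had an unadjusted p under 0.05 also varied: Psmg2 in most settings, and Psme2, Psmb7, Psme3, Psmb8, Psma2 or Psmd1 in at least 1. The median log2 fold change was -0.04 with the replicate block and GC-content offsets. Signs turned for Psmc3 with library totals (0.0091) and limma voom (0.00089). With GC-content offsets they turned for Psmb5 (-0.03), Psmc4 (-0.004), Psmd14 (0.02), Psmd4 (-0.03), Psmd8 (-0.01), Psmg3 (-0.0093) and the median of the other base genes (-0.03). With the replicate block added to those offsets they turned for Psmb4 (-0.0024), Psmb5 (-0.04), Psmc4 (-0.0046), Psmd14 (0.02), Psmd4 (-0.03), Psmd8 (-0.01), Psmg3 (-0.01) and that median (-0.03). With libraries left out, Akap11 ranged from -0.55 to -0.41 and the median of the members from -0.04 to -0.0074; the ratios of Psmb8 to Psmb5, Psmb9 to Psmb6 and Psmb10 to Psmb7 ranged from -1.19 to -0.39, from -0.32 to 0.12 and from 0.08 to 0.28. The sign turned in at least 1 such setting, with these ranges, for the median of the other base genes (-0.01 to 0.03), Psmb10 (-0.03 to 0.12), Psmb4 (-0.06 to 0.05), Psmc1 (-0.11 to 0.02), Psmc3 (-0.02 to 0.02), Psmc4 (-0.01 to 0.05), Psmc5 (-0.02 to 0.03), Psmd11 (-0.08 to 0.0033), Psmd12 (-0.08 to 0.01), Psmd3 (-0.03 to 0.12), Psmd4 (-0.01 to 0.03), Psmd8 (-0.03 to 0.02), Psmg1 (-0.02 to 0.27), Psmd2 (-0.0083 to 0.06), Psmg4 (-0.28 to 0.02), Psma7 (-0.0079 to 0.06), Psmb5 (-0.09 to 0.09), Psmc3ip (-0.13 to 0.26), Psmg3 (-0.06 to 0.17), the median of the assembly genes (-0.03 to 0.10), Psmd5 (-0.03 to 0.06), Psmf1 (-0.0088 to 0.10), the median of the immunoproteasome genes (-0.27 to 0.08), Psmb3 (-0.06 to 0.04), Psmb9 (-0.27 to 0.08), Psme1 (-0.06 to 0.03), Psmd14 (-0.07 to 0.0042) and Psmc2 (-0.05 to 0.0069). The cause was not tested. The labels link libraries of the same number by that number only. Their deviations from the group means correlated at -0.0466, 0.0515, 0.0734 and 0.0594 over 10368 genes. The highest correlations of cKO replicates 1 to 4 with a control library of another number were 0.0572, 0.12, 0.15 and 0.0435. These values cannot exclude a pairing. Few reads limit Psmb8, Psmb9, Psmg3 and Psmc3ip.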
